A study of Mus musculus with 10 samples.

Results

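The genes of the small GTPase RhoA, its ROCK kinases and myosin phosphatase were examined in mouse aortae by age. The 9 genes were found by symbol among the 55453 gene symbols of the deposited count table. They were *Rhoa*, *Rhob*, *Rhoc*, *Rock1*, *Rock2*, *Ppp1r12a*, *Ppp1r12b*, *Ppp1r14a* and *Ppp1cb*, and all 9 were among the 14614 genes that passed the low-count filter. RNA-seq had been performed on whole aortae of 10 male C57BL/6 mice, freed of the surrounding fat, with 1 library per mouse. The young group consisted of 5 mice aged 14.5 weeks and the old group of 5 mice aged 92.5 weeks, and the labels name no transgene or drug for either group. The comparison asked which of these genes differ in expression between young and old aortae.

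RhoA, RhoB and RhoC are closely related molecular switches that are active when bound to GTP. In vascular smooth muscle, active RhoA turns on the kinases ROCK1 and ROCK2, and these inhibit myosin phosphatase. The phosphatase removes phosphate from the regulatory light chain of myosin, so that its inhibition keeps the muscle contracted at a given calcium level, which is known as calcium sensitization. The enzyme consists of a catalytic subunit (PP1 beta, from *Ppp1cb*), a targeting subunit (MYPT1 from *Ppp1r12a* or MYPT2 from *Ppp1r12b*) and a small subunit, and it is inhibited by CPI-17, the product of *Ppp1r14a*.

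The libraries held between 19640401 and 22886153 counts. Each of the 9 genes had at least 2862 counts in every library, so that counting error was small beside the spread between mice. Defining smooth muscle genes were abundant in every aorta, with a summed level of 736475 to 945758 normalized counts over 7 markers, the lowest values being in young replicate 1 and old replicate 2. Both of these libraries stood apart in other ways. Summed adipocyte markers were at 24048 normalized counts in young replicate 1, against 6378 to 12347 in the other young aortae and 3437 to 8546 in the old ones. The mitochondrial share of counts was 11% in old replicate 2 and at most 6.51% elsewhere.

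By edgeR's quasi-likelihood test, 0 of the 9 genes were called at a Benjamini-Hochberg adjusted p below 0.05, whereas 11.5% of all genes tested were called (6.48% higher and 4.99% lower in old aortae). Of the 9 genes, 3 had an unadjusted p below 0.05 (*Rhob*, *Ppp1r12a* and *Ppp1cb*, all lower in old aortae), against 26.7% of all genes, or 12.6% counting lower genes alone. DESeq2, the tool that the methods of the study name, called 2 of the 9 genes, *Rhob* and *Ppp1r12a*, both lower in old aortae. Its background was 13.6% in either direction and 6.33% for lower genes. The study itself lists *Ppp1r12a* among the downregulated genes of the focal adhesion pathway. Limma-voom called 0 of the 9, against 11.3% of all genes. The log2 fold change of old over young was negative for 8 of the 9 genes and for 49.2% of all genes, and its median was -0.10 for the 9 genes and 0.00 for all genes. The fold changes lay between -0.28 and 0.04 on the log2 scale, and the 95% confidence interval of every gene stayed inside a 2-fold change in either direction.

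The spread between mice was modest. The median coefficient of variation of the 9 genes was 9.59% among young and 8.94% among old mice, and the median standard error (SE) of the log2 fold change was 0.07, against 0.10 over all genes tested. The groups of old and young mice overlapped for each of the 9 genes, while 9.92% of all genes had groups that did not overlap, and 4.55% had all old aortae below the young ones. Levels are normalized counts, obtained with the size factors of DESeq2, and are given as mean ± SD with n = 5 mice per group. In bulk RNA of a whole vessel, fewer cells of a type cannot be told apart from less RNA per cell.

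**Figure D1:**
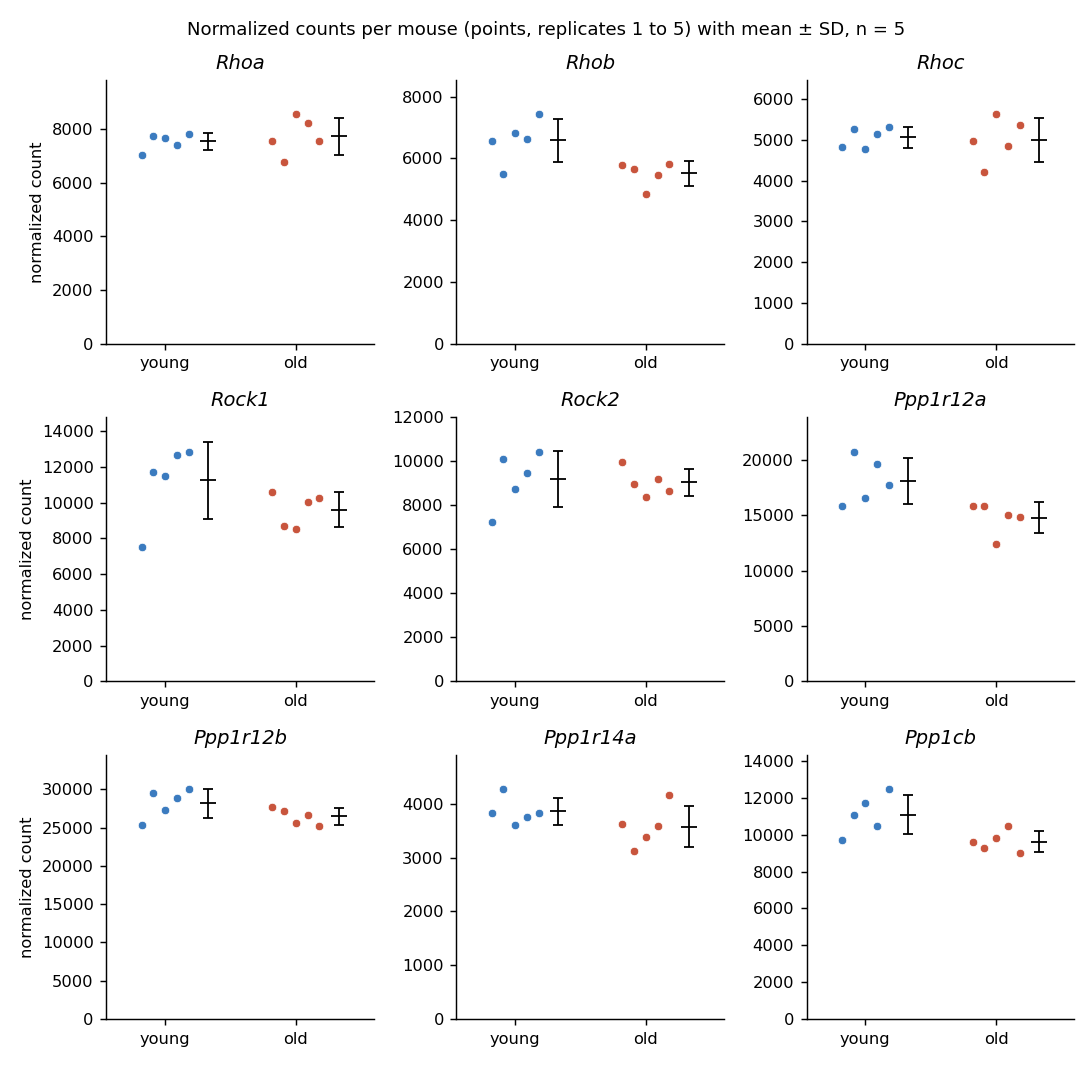
Normalized counts (vertical axis, from 0) of the 9 genes in 5 young and 5 old aortae. Points are mice in the order of replicates 1 to 5, and the bar beside them is the mean ± SD. The groups overlap in every panel. In *Ppp1r12a* 4 of the 5 old mice lie below all young mice, old replicate 1 by a narrow margin that edgeR's TMM scaling reverses.

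Promoter sequences are shown first for the genes that came nearest to the threshold, *Rhob* and *Ppp1r12a*, and for both start sites of *Ppp1r12b*, whose ratio to *Ppp1r12a* is described below. The sequences are the 250 bases upstream of the start site in RefSeq (GRCm38.p6), 5′ to 3′ on the strand of the gene. Capitals mark matches to CCAAT or, read on the other strand, ATTGG. The positions are chr12:8500010-8500259 (minus strand) for *Rhob* and chr10:108161848-108162097 (plus strand) for *Ppp1r12a*. For *Ppp1r12b* they are chr1:134955941-134956190 at the upstream start and chr1:134803843-134804092 at the internal start (both minus strand).
Rhob: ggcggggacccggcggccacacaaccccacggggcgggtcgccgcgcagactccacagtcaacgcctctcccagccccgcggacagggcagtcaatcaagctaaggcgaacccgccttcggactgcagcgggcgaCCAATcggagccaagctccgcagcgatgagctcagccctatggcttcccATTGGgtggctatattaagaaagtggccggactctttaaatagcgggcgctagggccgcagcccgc
Ppp1r12a: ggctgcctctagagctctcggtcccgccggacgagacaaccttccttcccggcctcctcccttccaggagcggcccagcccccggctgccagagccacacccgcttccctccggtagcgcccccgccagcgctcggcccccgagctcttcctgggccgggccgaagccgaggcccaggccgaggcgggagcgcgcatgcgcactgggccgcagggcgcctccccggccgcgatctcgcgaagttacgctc
Ppp1r12b, upstream start: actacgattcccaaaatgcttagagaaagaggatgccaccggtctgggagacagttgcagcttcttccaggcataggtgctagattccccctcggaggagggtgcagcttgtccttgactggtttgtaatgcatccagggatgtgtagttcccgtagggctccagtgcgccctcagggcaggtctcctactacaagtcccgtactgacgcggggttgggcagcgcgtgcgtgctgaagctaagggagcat
Ppp1r12b, internal start: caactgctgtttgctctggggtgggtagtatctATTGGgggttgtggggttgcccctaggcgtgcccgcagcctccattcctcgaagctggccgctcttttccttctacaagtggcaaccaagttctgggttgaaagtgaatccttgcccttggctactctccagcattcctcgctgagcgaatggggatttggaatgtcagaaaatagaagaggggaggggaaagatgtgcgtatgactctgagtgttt

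The *Rhob* window held CCAAT at bases -115 to -111 and its inverse at -66 to -62, counted with 0 as the first transcribed base. CCAAT on either strand occurs in 37.4% of 32851 RefSeq promoter windows of the same design, which reach from 250 bases before the start to 50 after it. The *Ppp1r12a* window held no CCAAT, and the internal start of *Ppp1r12b* had 1 inverted match at -217 to -213. RefSeq windows were found for 8 of the 9 genes, with 10 start sites in all. None of the 10 windows, searched on both strands, held a CArG box (the site bound by serum response factor, in 1.63% of all windows), CACGTG (7.15%) or TGACGTCA (1.79%). The GC box GGGCGG, in 35.7% of all windows, was found for all 8 genes but not in every window. The windows of 1 *Rhoa* start and of the internal *Ppp1r12b* start held none. TATAAA, in 13.6% of windows, occurred only as an inverse at +25 to +30 of that *Rhoa* start. These matches describe letters and were not tested for binding.

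*Rhoa* (chr9:108306129-108337934), the main activator of ROCK in smooth muscle, did not change detectably. Its normalized counts were 7039, 7733, 7643, 7413 and 7823 in young replicates 1 to 5 and 7528, 6767, 8543, 8221 and 7538 in old replicates 1 to 5. The old aortae spread on both sides of the young ones, with 2 above and 1 below all of them. On the log2 scale the change was 0.04 (SE 0.07, adjusted p = 0.737 by edgeR), and its 95% interval corresponded to a fold of 0.931 to 1.14. Single omissions gave 0.00297 without old replicate 3 to 0.0829 without old replicate 2. Of its 50-base windows 7.42% occur in other genes, the most in the antisense gene *Gm37401*, and the strand setting of the counting is not given in the sources used here.

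*Rhob* (chr12:8497661-8500009), an intronless early-response member of the family whose protein sits on endosomes as well as the plasma membrane, had a lower mean level in old aortae. Young replicates 1 to 5 had 6564, 5507, 6829, 6612 and 7431 normalized counts, and old replicates 1 to 5 had 5782, 5659.9, 4850.2, 5472 and 5831. Of the young mice 4 lay above all old mice, and young replicate 2 alone fell within the old range. The mean went from 6589 ± 696 to 5519 ± 399, a log2 change of -0.25 (SE 0.08, adjusted p = 0.0613 by edgeR, DESeq2 adjusted p = 0.0267). Without young replicate 2 the value was -0.31 (edgeR adjusted p = 0.0191). It ranged from -0.31 to -0.21 over 20 alternatives, with adjusted p between 0.0191 and 0.139.

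Since *Rhob* is induced rapidly by stress and handling, other immediate early genes were tallied. Of 19 tested, edgeR called 3 lower and 1 higher in old aortae, against 4.99% and 6.48% of all genes. The median log2 change of the list was -0.35. *Atf3*, *Fosb* and *Klf6* were lower (-2.28, -1.16 and -0.43) and *Junb* was higher (0.77). The summed level of the list was 30951 to 56623 normalized counts in young and 24103 to 43544 in old aortae. It was lowest in young replicate 2 and old replicate 3, the libraries that also held the lowest *Rhob* of their groups. The highest ends did not match. Young replicate 1 had the highest sum with *Rhob* at 6564, whereas young replicate 5 had the highest *Rhob* (7431) with a sum of 39146. Among the old mice the highest sum was in old replicate 2 and the highest *Rhob* in old replicate 5. The part of this list in the *Rhob* result was not tested. The 7 endothelial markers had a median log2 change of -0.60, and 1 of them (*Tek*) was called lower. By edgeR 6 of the 7 had a negative log2 change and 5 an unadjusted p below 0.05. Their summed level was 21743 to 36758 in young and 12464 to 25218 in old aortae. The part of these markers in the *Rhob* result was not tested either.

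*Rhoc* (chr3:104788375-104794459), the third close homolog, differed by less than the spread between mice. Its normalized counts were 4815, 5279, 4785, 5136 and 5328 in young replicates 1 to 5 and 4969, 4216, 5632, 4844 and 5362 in old replicates 1 to 5. The young values all lay within the range of the old ones. Old over young, the log2 change was -0.01 (SE 0.07, adjusted p = 0.95 by edgeR, interval of the fold 0.888 to 1.11), and its sign depended on how libraries were scaled.

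*Rock1* (chr18:10064401-10182045) and *Rock2* (chr12:16894895-16987823) encode the kinases that RhoA activates. *Rock1* had 7514, 11699, 11477, 12645 and 12840.3 normalized counts in young replicates 1 to 5 and 10582, 8680.5, 8492, 10016 and 10269 in old replicates 1 to 5. Young replicate 1 was below every old aorta, whereas the other 4 young mice were above all old ones. The log2 change was -0.22 (SE 0.13, adjusted p = 0.313 by edgeR) with all mice. Without young replicate 1 it was -0.33 (edgeR adjusted p = 0.0122), and *Ppp1r12a* and *Ppp1cb* also passed in that fit, in which 7.73% of all genes were called lower. Omission of both young replicate 1 and old replicate 2, chosen after the data were seen, gave -0.30 for *Rock1* (edgeR adjusted p = 0.0208).

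*Rock2* had 7238, 10122, 8722, 9470.3 and 10437 normalized counts in young replicates 1 to 5. The old replicates 1 to 5 had 9984, 8983, 8396, 9211 and 8665, all inside the range of the young mice. Young replicate 1 was again the lowest of all libraries. On the log2 scale the change was -0.02 (SE 0.09, adjusted p = 0.939 by edgeR, interval of the fold 0.862 to 1.14), and it changed sign with the scaling of the libraries.

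*Ppp1r12a* (chr10:108162193-108284475), which encodes the targeting subunit MYPT1 that ROCK phosphorylates, showed the lowest fold change of the 9 genes. Its normalized counts were 15849.7, 20715, 16502, 19569 and 17702 in young replicates 1 to 5. They were 15820.4, 15862, 12400.3, 15011 and 14789 in old replicates 1 to 5. Only old replicate 2 reached the range of the young mice, just above young replicate 1, and old replicate 3 had the lowest level of all. The mean went from 18068 ± 2047 to 14776 ± 1411, a log2 change of -0.28 (SE 0.09, adjusted p = 0.0603 by edgeR, DESeq2 adjusted p = 0.0207). Without young replicate 1 it was -0.33 (edgeR adjusted p = 0.0243), and over 20 alternatives it stayed between -0.35 and -0.23, with adjusted p from 0.0207 to 0.146.

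*Ppp1r12b* (chr1:134754658-134955942) encodes MYPT2, the related targeting subunit of striated and smooth muscle, and a small subunit from the internal start. Young replicates 1 to 5 had 25308, 29465, 27319.8, 28844 and 30010.6 normalized counts, and old replicates 1 to 5 had 27751, 27183, 25592, 26613 and 25154. Of the young mice 3 lay above all old mice, and young replicate 1 lay near the bottom of the old range. Old over young, the log2 change was -0.08 (SE 0.07, adjusted p = 0.458 by edgeR, interval of the fold 0.856 to 1.04). Other genes hold 4.18% of its 50-base windows, mainly the antisense gene *Gm28892*, so that without strand their reads could not be told apart.

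*Ppp1cb* (chr5:32458843-32517433), the catalytic subunit, had 9736, 11072, 11733, 10485 and 12476 normalized counts in young replicates 1 to 5. Old replicates 1 to 5 had 9586, 9295, 9816, 10471 and 8990.2. Young replicate 1 fell among the old mice, and the other 4 young mice lay above all of them. The margin of young replicate 4 over old replicate 4 was narrow, and edgeR's TMM scaling reverses it. The mean went from 11100.5 ± 1064 to 9632 ± 562, a log2 change of -0.20 (SE 0.07, adjusted p = 0.105 by edgeR, DESeq2 adjusted p = 0.0536). Without young replicate 1 it was -0.24 (edgeR adjusted p = 0.0304). The gene *Gm43312* lies on the same strand within *Ppp1cb* and holds 16.4% of its 50-base windows, so that reads could be assigned to either gene or to neither.

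*Ppp1r14a* (chr7:29289308-29293801), which encodes the phosphatase inhibitor CPI-17, had 3831, 4271, 3601, 3762 and 3831 normalized counts in young replicates 1 to 5. Old replicates 1 to 5 had 3635, 3119, 3383, 3585 and 4162, with 3 of them below all young mice and old replicate 5 near the top. The log2 change was -0.10 (SE 0.07, adjusted p = 0.423 by edgeR, interval of the fold 0.833 to 1.04). It was -0.0610 without old replicate 2, -0.0670 without young replicate 2 and -0.16 without old replicate 5, with no call in any of these fits.

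**Figure D2:**
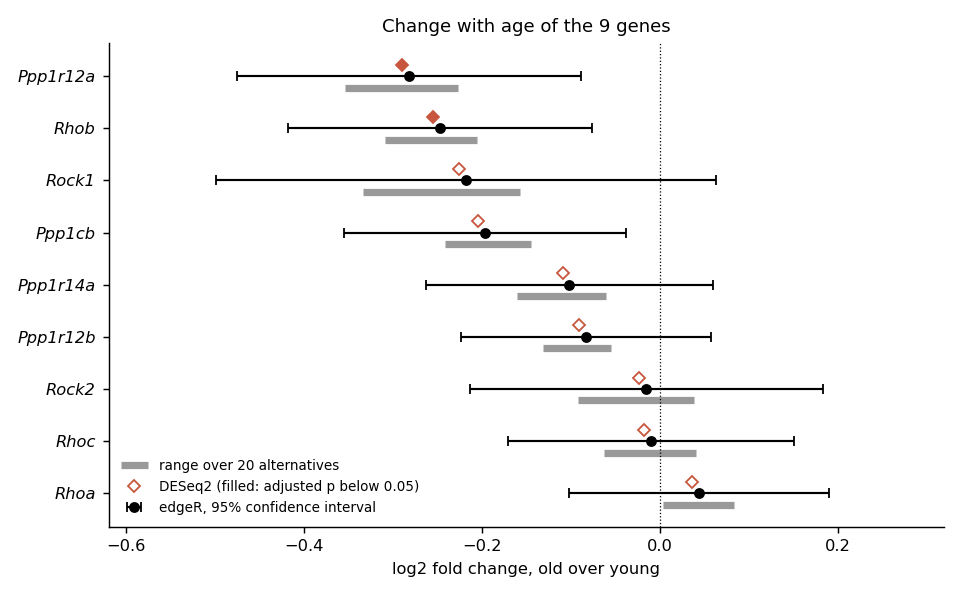
Log2 fold change of old over young (horizontal axis) for the 9 genes, ordered by size. Black points and bars are edgeR's estimates with 95% confidence intervals, diamonds are DESeq2's estimates (filled where its adjusted p is below 0.05) and grey bars give the range over 20 alternatives. *Ppp1r12a*, *Rhob* and *Ppp1cb* have intervals that leave out 0 before adjustment, and the grey bars of *Rock2* and *Rhoc* cross 0.

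Levels were compared between genes only per kilobase. Divided by the length of all exons of the gene, the mean normalized count was 3113 per kilobase for *Rhoc*, 2720 for *Ppp1r14a*, 2577 for *Rhob*, 2048 for *Ppp1r12a*, 1824 for *Ppp1r12b*, 1017 for *Rhoa*, 949.9 for *Ppp1cb*, 656 for *Rock2* and 576 for *Rock1*. With the length of the principal transcript, an alternative chosen after the annotation was seen, *Ppp1r12b* was highest at 7546, followed by *Ppp1r12a* at 4895, *Rhoc* at 4190.1 and *Ppp1r14a* at 3914. *Rhoa* was then at 3471, above *Rhob* at 2577, *Ppp1cb* at 1739, *Rock1* at 1618 and *Rock2* at 1193. The order of the genes thus depended on which transcripts carry the reads, which gene counts do not show, and on either length both kinases were below the genes of the targeting subunits. The counts also pool splice forms, such as those of *Ppp1r12a* with and without the leucine zipper.

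Ratios of a pair of genes within a library do not depend on how libraries are scaled, and 4 were tested by exact permutation (two-sided) of the ages, with 252 possible assignments. The ratio of *Ppp1r12b* to *Ppp1r12a* counts was 1.597, 1.42, 1.66, 1.47 and 1.70 in young replicates 1 to 5 and 1.75, 1.71, 2.06, 1.77 and 1.70 in old replicates 1 to 5. Every old mouse was above every young mouse, although the highest young value, 1.695, and the lowest old value, 1.701, lay side by side. The mean was 1.57 ± 0.117 in young and 1.80 ± 0.150 in old aortae, a log2 difference of 0.20 (SE 0.07, n = 5, exact permutation p = 0.00794, the smallest p that 5 against 5 allows, 0.0317 adjusted over the 4 ratios). The ratio compares mice and not molecules, since the genes differ in length. By edgeR the log2 change was -0.28 for *Ppp1r12a* and -0.08 for *Ppp1r12b* (adjusted p = 0.0603 and 0.458). The 4 ratios were chosen with earlier results of these data known. How often ratios of other gene pairs do not overlap is not given here. Single omissions gave differences of 0.15 to 0.23, lowest without old replicate 3.

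The ratio of *Rock1* to *Rock2* was 1.04, 1.16, 1.32, 1.34 and 1.23 in young replicates 1 to 5 and 1.06, 0.966, 1.01, 1.09 and 1.19 in old replicates 1 to 5. The groups overlapped, and the difference of -0.19 (SE 0.08) on the log2 scale did not pass (exact permutation p = 0.0635, adjusted p = 0.0847). It was -0.25 without young replicate 1 (exact permutation p = 0.0238) and -0.23 without old replicate 5 (exact permutation p = 0.0397). The ratio of *Rhob* to *Rhoa* was 0.933, 0.712, 0.893, 0.892 and 0.95 in young and 0.768, 0.836, 0.568, 0.666 and 0.774 in old replicates 1 to 5. Young replicate 2 fell among the old mice while the other 4 young mice were above all of them, and the difference of -0.28 (SE 0.12) did not pass either (exact permutation p = 0.0635, adjusted p = 0.0847). It was -0.36 without young replicate 2 (exact permutation p = 0.0159) and -0.34 without old replicate 2 (exact permutation p = 0.0317). The ratio of the inhibitor gene *Ppp1r14a* to *Ppp1r12a* was 0.192 to 0.242 in young and 0.197 to 0.281 in old aortae. The difference was 0.17 (SE 0.11, exact permutation p = 0.143), or 0.25 without old replicate 2 (exact permutation p = 0.0317). These omissions gave low p, and no p after an omission is adjusted over the 4 ratios. Over all single omissions the exact permutation p reached 0.111 for *Rock1* over *Rock2*. It reached 0.119 for *Rhob* over *Rhoa* and 0.286 for *Ppp1r14a* over *Ppp1r12a*.

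**Figure D3:**
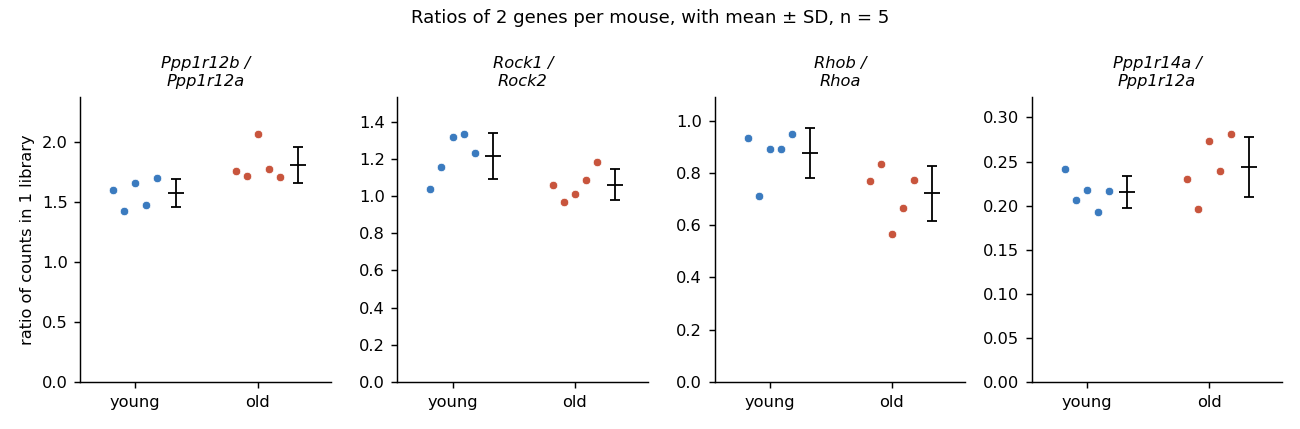
Ratio of the counts of 2 genes in the same library (vertical axes, from 0) for 5 young and 5 old mice. Points are mice in the order of replicates 1 to 5, and bars are mean ± SD. The groups do not overlap for *Ppp1r12b* over *Ppp1r12a* and overlap for the other 3 ratios.

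The 9 genes were next compared over the 10 mice after the mean of each age group had been removed, with exact permutation within age groups and adjustment over the 36 pairs. *Rock2* and *Ppp1r12b* varied together most closely, with Pearson's r = 0.956 and Spearman's coefficient of 0.939 (exact permutation, adjusted p = 0.0175 and 0.015). Without young replicates 1 and 5, the mice farthest from the median of *Rock2*, r was 0.887 (exact permutation p = 0.0125, n = 8). With 9 mice, r stayed between 0.902 and 0.981, but the adjusted p was 0.05 to 0.1 without any 1 of the 5 young mice or old replicate 1. No other pair passed the adjustment. *Rock1* and *Rock2* had r = 0.871 and a Spearman coefficient of 0.794 (exact permutation, adjusted p = 0.204 and 0.180), which fell to r = 0.559 without young replicate 1 alone and to 0.509 without the same 2 mice. *Rhoa* with *Ppp1cb*, *Rock2* with *Ppp1r12a* and *Ppp1r12a* with *Ppp1r12b* had r of 0.637, 0.703 and 0.712, with unadjusted exact permutation p of 0.0216, 0.0316 and 0.0352 and an adjusted p of 0.254 each. Spearman's coefficient of these pairs was 0.794, 0.648 and 0.576, and r without the 2 mice farthest from the median of the first gene was 0.897, 0.826 and 0.770. All values of a mouse come from 1 library, and libraries differed in how counts related to the GC content of genes, with Spearman's coefficient across genes from -0.355 in young replicate 3 to 0.172 in young replicate 1. Summed smooth muscle markers ran from 796386 in young replicate 1 to 945758 in young replicate 5. Their order over the young mice was that of *Rock2* and *Ppp1r12b*. Among the old mice, replicate 1 was highest in each, but the order differed otherwise. The lowest was old replicate 2 for the markers, old replicate 3 for *Rock2* and old replicate 5 for *Ppp1r12b*. The part of the GC trends and of the markers in the correlations was not tested.

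**Figure D4:**
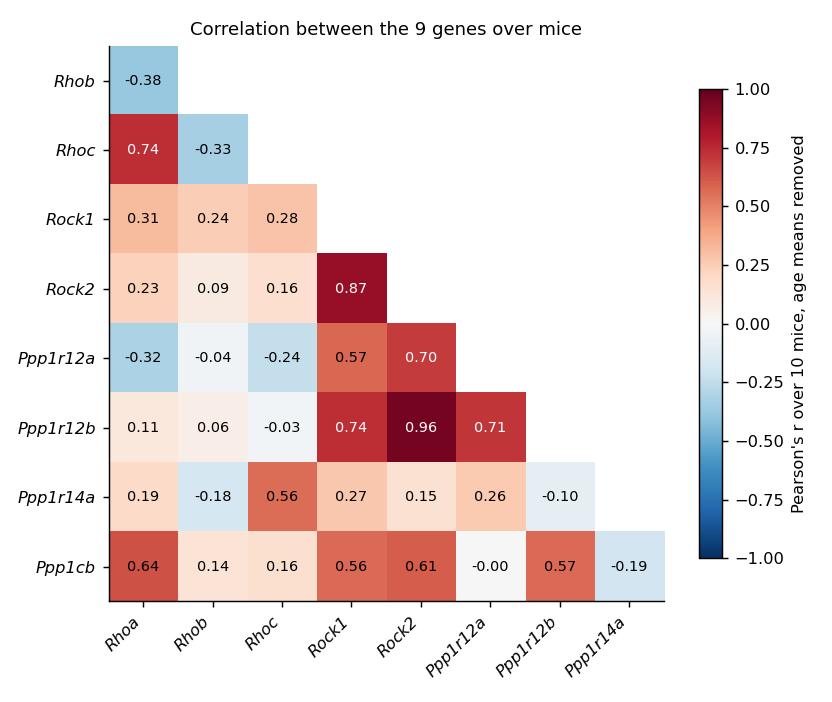
Pearson's r between the normalized log2 levels of each pair of the 9 genes over 10 mice, after removal of the age means (colour scale from -1 to 1). Values run from -0.38 for *Rhoa* with *Rhob* to 0.96 for *Rock2* with *Ppp1r12b*, the only pair that passed adjustment over the 36 pairs.

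Other genes of the pathway were taken from 7 fixed lists with 78 genes, of which 77 were tested. EdgeR called 9 of them (11.7%), 4 higher and 5 lower in old aortae, against 11.5% of all genes, so that the share was near the background. The count was 16 with DESeq2, which called 13.6% of all genes. It was 14 without young replicate 1, with 9 of them lower, where 7.73% of all genes were called lower.

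Upstream of RhoA, 1 of 9 genes for G proteins and receptors was called. *Gnaq*, the alpha subunit of Gq, fell from 2237 ± 71.9 to 1900 ± 127 normalized counts, a log2 change of -0.23 (SE 0.06, adjusted p = 0.0190 by edgeR), without overlap of the groups. Without old replicate 2 the list had 2 calls. Of the 8 exchange factors that load GTP on RhoA, 0 were called by edgeR, and the log2 fold changes ran from -0.65 to 0.21. *Net1*, at -0.65, and *Arhgef25*, which encodes the smooth muscle exchange factor p63RhoGEF, at 0.21, had an unadjusted p below 0.05 and were named after their values were seen (adjusted p = 0.0772 and 0.0507 by edgeR). The count of 0 was 2 with DESeq2, 2 without young replicate 1, 1 without old replicate 3 and 1 with upper-quartile factors or library size. Among 11 GTPase activating proteins and dissociation inhibitors, edgeR called *Arhgdib* only, an inhibitor best known from blood cells. It rose from 736 ± 124 to 1140 ± 204 normalized counts, a log2 change of 0.64 (SE 0.14, adjusted p = 0.0109 by edgeR). Of 6 tested macrophage and leukocyte markers, edgeR called 3 higher (*Cd68*, *Adgre1* and *C1qa*). None of the 6 had a negative log2 change, and their median was 0.73. The summed level of that list was 5728 to 7702 in young and 7607 to 16182 in old aortae, highest in old replicate 3, with *Cd3e* at 0 in at least 1 library. The part of these cells in the *Arhgdib* result was not tested. The list of activating proteins and inhibitors had 2 calls without young replicate 5 or old replicate 2, 2 with DESeq2 and 3 with upper-quartile factors or library size.

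Of 9 tested genes for other phosphatase subunits and inhibitors, edgeR called *Ppp1r14b*, a paralog of the CPI-17 gene. It rose from 386 ± 25.7 to 464 ± 42.1 normalized counts, a log2 change of 0.28 (SE 0.08, adjusted p = 0.0382 by edgeR), and it did not pass in 10 of 20 alternatives, with adjusted p from 0.0164 to 0.141. Among these were the omissions of young replicates 2 to 5 and of old replicates 3 to 5, which gave adjusted p of 0.0601 to 0.103. Without young replicate 1, the list had 2 calls. Among 10 kinases that act on the phosphatase or on CPI-17, edgeR called *Prkcb*, a protein kinase C gene, which rose from 56.6 ± 12 to 117 ± 22.7 normalized counts. Its log2 change was 1.05 (SE 0.18, adjusted p = 0.00267 by edgeR), without overlap of the groups. The summed macrophage and leukocyte markers given beside *Arhgdib* were higher in old aortae too, above all young ones in 4 of 5, and their part in the *Prkcb* result was not tested. The kinase list had 2 calls without young replicate 1.

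Downstream, the 11 genes of myosin II and its light chain kinase had 2 calls, both lower. *Myh10*, the heavy chain of nonmuscle myosin IIB, fell from 23723 ± 1168 to 18651 ± 2021 normalized counts, a log2 change of -0.34 (SE 0.08, adjusted p = 0.0137 by edgeR). *Myl12a*, a nonmuscle regulatory light chain that the phosphatase acts on, had a log2 change of -0.44 (SE 0.11, adjusted p = 0.0234 by edgeR), with adjusted p of 0.0632, 0.0527 and 0.0607 without young replicate 4, young replicate 5 or old replicate 5. Without old replicate 2 the list had 3 calls. Of 19 effectors on actin, edgeR called 3. The formin gene *Daam1* fell from 1913 ± 135 to 1399 ± 84.1 normalized counts, a log2 change of -0.44 (SE 0.06, adjusted p = 0.000669 by edgeR). The genes of ezrin and radixin, which link actin to the membrane and are phosphorylated by ROCK, went in opposite directions, with 0.43 for *Ezr* (edgeR adjusted p = 0.00596) and -0.26 for *Rdx* (edgeR adjusted p = 0.00776).

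**Figure D5:**
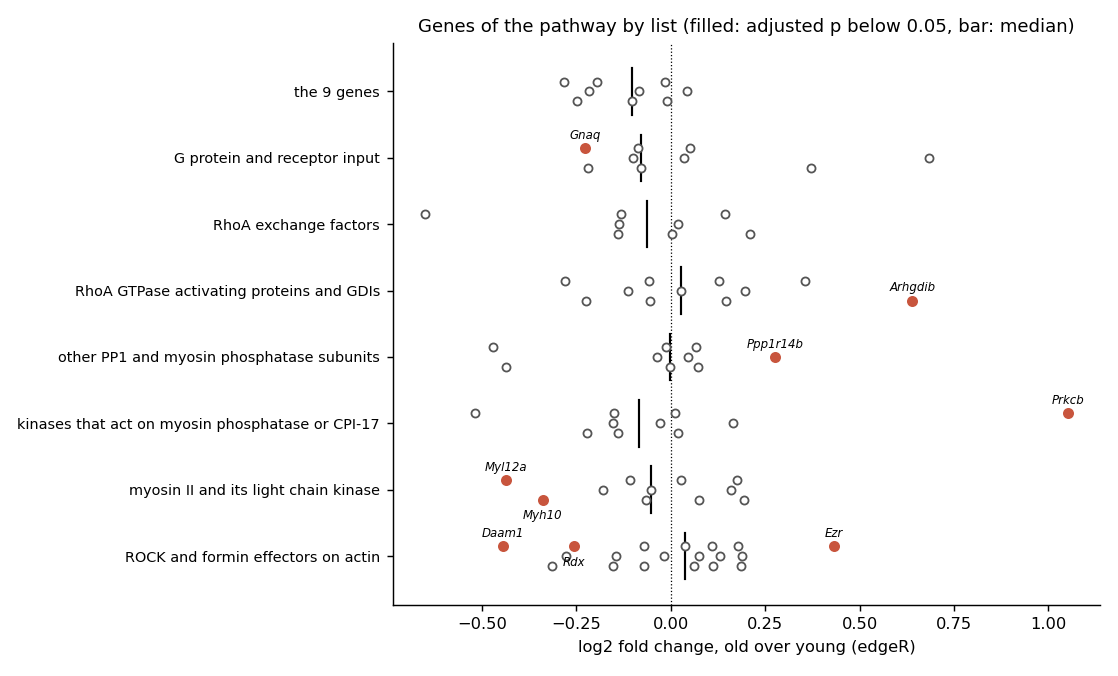
Log2 fold change of old over young (horizontal axis, edgeR) for the 9 genes and the 77 tested genes of 7 pathway lists. Each point is a gene, filled and labelled where the adjusted p is below 0.05, and the vertical bar is the median of the list. The 9 genes lie between -0.28 and 0.04 with no filled point, and 9 of the other points are filled, 4 above 0 and 5 below.

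The remaining marker lists moved as follows in old against young aortae. Of 7 smooth muscle markers edgeR called 1, *Smtn*, which rose by 0.29 on the log2 scale. However, 4 of the 7 had a negative log2 change, down to -0.54 for *Myocd*, and the list median was -0.07. Of 7 fibroblast markers *Lum* was called higher and *Pi16* lower. In edgeR 0 of 6 adipocyte markers passed, although *Adipoq*, *Plin1*, *Cidec* and *Car3* had an unadjusted p below 0.05 and the median was -1.02. Of 6 tested striated muscle markers edgeR called *Tnnt2* higher, but 4 had a negative log2 change and the list median was -0.50. Among these, *Actn2* and *Tnni3* were at -1.42 and -0.74 (unadjusted p = 0.0136 and 0.00592 by edgeR). Of 6 Schwann cell markers *Prx* was called higher, with 1 negative and a list median of 0.31.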

How the data were processed

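Libraries had been made from poly(A) RNA with a stranded kit, per the labels. Per the submitters' processing notes and the methods of the study, the authors trimmed reads with fastp 0.20.0, aligned them to GRCm38 with STAR 2.7.0f and counted them per gene with featureCounts (Subread 1.6.4). The deposited values are raw counts, and the strand setting of the counting is not given in the sources used here. The 9 genes, the lists and the tests were chosen with earlier results of these data known. All genes were fitted with edgeR 4.0.16 (filterByExpr, TMM, robust quasi-likelihood F test, no covariate) under R 4.3.3, with Benjamini-Hochberg adjustment over 14614 genes. Total counts ranged from 19640401 to 22886153 per library. Alternatives were DESeq2 1.42.0, limma-voom (limma 3.58.1), 3 other scalings, 2 other filters, a replicate block, removal of GC content and length trends, a threshold of 0.01 and omission of each mouse. Named were the 9 genes and, per list, at most 5 called genes with the smallest p. Within groups, no pair of libraries agreed within counting error. Positions and exon lengths are from GENCODE M21 on GRCm38. Mice are the replicates, numbered in the labels. A further list of genes is not reported here.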

Additional observations from a re-analysis of the deposited data

Results flagged for a closer look

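In 44 sets of 5 mice, Dixon's test found 3 in which 1 library stood apart from the others, and chance alone gives about 1 in 20. *Rock1* was at 7513.9 normalized counts in young replicate 1, while the other young aortae had 11477 to 12840.3. The ratio of *Ppp1r12b* to *Ppp1r12a* was 2.06 in old replicate 3, against 1.70 to 1.77 in the other old aortae. The ratio of *Rhob* to *Rhoa* was 0.712 in young replicate 2, against 0.892 to 0.95 in the other young aortae.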

How the results depend on the processing

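The count of 0 of the 9 genes called by edgeR was 2 with DESeq2, 2 without the low-count filter, 1 after removal of the GC content and length trends, and 3 with both young replicate 1 and old replicate 2 omitted, and it was 0 to 3 with each mouse left out in turn. *Rhob* passed with DESeq2 (-0.26), without the filter (-0.25) and after trend removal (-0.29). *Ppp1r12a* passed with DESeq2 (-0.29), without the filter (-0.29) and with both libraries omitted (-0.35), where *Rock1* (-0.30) and *Ppp1cb* (-0.23) also passed. With each mouse left out, the log2 fold change was -0.31 to -0.21 for *Rhob*, -0.33 to -0.17 for *Rock1*, -0.33 to -0.23 for *Ppp1r12a* and -0.24 to -0.16 for *Ppp1cb*. The sign turned for *Rhoc* with upper-quartile factors (0.0183), library size (0.0164) and both libraries omitted (0.0258), and for *Rock2* with upper-quartile factors (0.0136), library size (0.0126) and trend removal (0.0384), with ranges of -0.0581 to 0.0407 and -0.0916 to 0.0293 over single omissions. The cause was not tested. The median of all genes moved by 0.0273 with upper-quartile factors and by 0.0252 with library size, and by less than 0.1 with every scaling. Beside these shifts, the main log2 changes were -0.0103 for *Rhoc* and -0.0155 for *Rock2*. The share of higher calls was 56.5%, against 63.6% with upper-quartile factors. The 9 pathway calls numbered 4 at a threshold of 0.01, 16 with DESeq2, 16 with both libraries omitted and 7 to 14 with each mouse left out. DESeq2 called 13.6% of all genes. Single omissions gave 0.15 to 0.23 for *Ppp1r12b* over *Ppp1r12a*, -0.25 to -0.16 for *Rock1* over *Rock2*, -0.36 to -0.20 for *Rhob* over *Rhoa* and 0.12 to 0.25 for *Ppp1r14a* over *Ppp1r12a*. They left 0 to 1 correlated pairs, and *Rock2* with *Ppp1r12b* kept r between 0.902 and 0.981 with adjusted p of 0.0375 to 0.1.

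Deviations of mice of the same replicate number had r of -0.300 to 0.132, above 0.1 in 1 of 5 pairs. Of the young libraries 2 were most like the old one of their number, and 2 old ones were most like the young one. These values came without a test, so they cannot decide whether the numbers pair the mice. With a replicate block 0 of the 9 genes and 6 pathway genes were called, *Gnaq*, *Ppp1r14b* and *Myh10* had adjusted p of 0.0695, 0.0569 and 0.0501 by edgeR, and the ratio of *Ppp1r12b* to *Ppp1r12a* differed by 0.20 with an exact permutation p of 0.0625, the smallest that 5 pairs allow.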
